A study of Mus musculus with 4 samples.

Results

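Most of the genes described here encode the RNA polymerases, the Mediator complex and the general transcription factors. By a symbol rule, the set holds all mouse protein-coding genes whose symbol begins with Polr1, Polr2, Polr3, Gtf2 or Gtf3. It also holds those whose symbol begins with Med or Taf followed by a digit. The TFII-I family genes Gtf2i, Gtf2ird1 and Gtf2ird2, and Taf15, match the rule too and were grouped apart from these complexes. The rule found 105 genes among the 21900 protein-coding genes of the gene table: 28 polymerase subunits, 30 Mediator subunits, 24 TATA-binding-protein-associated factors (TAFs), 16 Gtf2 genes and 7 Gtf3 genes. Binding of Sp9, an SP/KLF family zinc finger protein, had been mapped at their promoters by ChIP-seq. The tissue was basal ganglia of CD1 mice, described as wild type, taken 13.5 or 16.5 days into gestation (E13.5, E16.5). For a stage there was 1 library made with a rabbit antibody to Sp9 and 1 input library made without antibody, which was not analysed here on its own. With 1 ChIP library per stage there were no replicates, so no difference between stages was tested. The labels do not say how many embryos went into a library.

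The E13.5 list holds 5847 peaks and the E16.5 list 6022, each as a signed distance in bp to a gene's transcription start site (TSS) on the mm9 build. Read depth, peak height and peak coordinates are not part of them. A gene that a list lacks had no peak assigned to it. Its binding may have been below the authors' threshold, or the gene may not have been in the set that peaks were assigned to. Intervals below are 95% Wilson intervals, which cover counting error over genes only. The ganglionic eminence genes Dlx1, Dlx2, Dlx5 and Dlx6 had 9, 7, 3 and 3 peaks no farther than 50 kb in the earlier list. In the later one they had 8, 5, 3 and 3. Peaks near these genes do not by themselves identify the dissected tissue. A peak can be listed for several genes, so these counts may repeat peaks.

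In eukaryotic cells RNA polymerase I transcribes the large ribosomal RNA precursor, polymerase II the messenger RNAs, and polymerase III transfer RNAs, 5S ribosomal RNA and other small RNAs. General transcription factors place polymerase II at the promoter: TFIID, made of the TATA-binding protein and the TAFs, binds first, and TFIIA, TFIIB, TFIIE, TFIIF and TFIIH complete the assembly. Mediator, built of head, middle, tail and kinase modules, bridges that assembly and factors bound at enhancers. Most of these genes are active in nearly all cells, and their promoters are often rich in CpG and carry GC boxes, the short motif that SP/KLF zinc fingers bind.

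The promoters of members with a peak close to the TSS are printed first, because the GC boxes in them can be read directly. Those below belong to members with a promoter peak in both lists and are the 5 with the most GC boxes among these. Of the 10 such members with a sequence, the other 5 had no GC box over 300 bases. The windows were thus chosen by the motif and do not show how common it is. Its shares in members with and without a promoter peak, 61.5% and 63.1%, are given below. Each window is the 250 bases before the RefSeq gene start on GRCm38.p6, 5′ to 3′ on the gene's strand. Capitals mark exact matches, on either strand, to 8 searched motifs: the GC box GGGCGG, the CACCC box CCACCC, the ETS core CCGGAAG, the CCAAT box CCAAT, the TATA box TATAAA, the YY1 core ATGGCGGC, the homeodomain core TAATTA and the NRF1 palindrome. The Polr2a promoter lies at chr11:69758634-69758883, minus strand, that of Polr2e at chr10:80039660-80039909, minus strand and that of Taf9 at chr13:100651093-100651342, plus strand. The Gtf3c4 promoter lies at chr2:28840361-28840610, minus strand, and that of Med20 at chr17:47611335-47611584, plus strand.
Polr2a: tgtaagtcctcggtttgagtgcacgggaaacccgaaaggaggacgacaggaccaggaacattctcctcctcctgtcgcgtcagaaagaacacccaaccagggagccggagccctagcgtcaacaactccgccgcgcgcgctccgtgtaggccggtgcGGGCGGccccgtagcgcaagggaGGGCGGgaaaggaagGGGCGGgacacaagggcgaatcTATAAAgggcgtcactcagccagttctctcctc
Polr2e: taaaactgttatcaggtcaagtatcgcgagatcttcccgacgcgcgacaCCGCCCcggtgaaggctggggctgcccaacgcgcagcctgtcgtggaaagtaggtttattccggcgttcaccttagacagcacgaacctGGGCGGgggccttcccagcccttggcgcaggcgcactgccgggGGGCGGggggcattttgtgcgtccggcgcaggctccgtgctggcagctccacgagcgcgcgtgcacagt
Taf9: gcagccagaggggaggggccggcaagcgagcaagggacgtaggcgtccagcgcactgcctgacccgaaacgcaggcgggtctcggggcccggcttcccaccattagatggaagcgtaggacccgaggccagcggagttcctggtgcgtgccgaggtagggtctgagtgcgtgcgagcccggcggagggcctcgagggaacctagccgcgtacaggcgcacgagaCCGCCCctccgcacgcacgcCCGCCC
Gtf3c4: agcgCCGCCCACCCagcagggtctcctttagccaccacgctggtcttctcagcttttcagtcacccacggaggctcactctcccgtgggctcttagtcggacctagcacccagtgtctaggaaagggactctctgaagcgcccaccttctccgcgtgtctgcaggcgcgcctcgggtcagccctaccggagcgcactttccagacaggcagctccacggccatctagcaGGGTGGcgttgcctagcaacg
Med20: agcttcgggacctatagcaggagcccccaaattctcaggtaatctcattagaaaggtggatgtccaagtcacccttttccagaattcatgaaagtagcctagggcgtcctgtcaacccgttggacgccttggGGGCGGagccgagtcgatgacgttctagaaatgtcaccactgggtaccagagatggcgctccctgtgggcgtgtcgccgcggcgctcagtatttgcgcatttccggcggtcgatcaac

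Polr2a, which encodes the largest subunit of polymerase II, carried 3 GC boxes, which began 93, 70 and 55 bases before the gene start, and a TATA box that began 33 bases before it. In Polr2e the 3 GC boxes began 201, 112 and 69 bases before the start. The Taf9 window held 2, beginning 26 and 6 bases before the first of its 2 listed starts, and 1 more ended past that start. In Gtf3c4 a GC box overlapped a CACCC box, with first bases 246 and 242 bases before the start, and a second CACCC box lay 21 bases before it. Med20 had 1 GC box, 118 bases before its start. The peak distances refer to TSS positions on mm9 and were not converted, so a peak cannot be placed on single bases of these windows.

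For members with a promoter peak in 1 list only, the 3 with the peak closest to the TSS are shown: Med22 and Med4 from the E16.5 list, and Med16 from the E13.5 list. The windows lie at chr2:26910643-26910892, minus strand, at chr14:73509799-73510048, plus strand and at chr10:79908939-79909188, minus strand.
Med22: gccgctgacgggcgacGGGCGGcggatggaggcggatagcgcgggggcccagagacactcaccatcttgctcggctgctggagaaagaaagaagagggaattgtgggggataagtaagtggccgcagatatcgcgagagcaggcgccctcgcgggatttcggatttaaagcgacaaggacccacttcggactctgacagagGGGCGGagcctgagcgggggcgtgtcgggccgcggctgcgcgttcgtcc
Med4: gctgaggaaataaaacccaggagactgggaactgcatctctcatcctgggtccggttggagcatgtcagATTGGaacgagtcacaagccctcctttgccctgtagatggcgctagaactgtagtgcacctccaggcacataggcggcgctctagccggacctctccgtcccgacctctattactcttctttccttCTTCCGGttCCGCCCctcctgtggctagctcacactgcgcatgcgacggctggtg
Med16: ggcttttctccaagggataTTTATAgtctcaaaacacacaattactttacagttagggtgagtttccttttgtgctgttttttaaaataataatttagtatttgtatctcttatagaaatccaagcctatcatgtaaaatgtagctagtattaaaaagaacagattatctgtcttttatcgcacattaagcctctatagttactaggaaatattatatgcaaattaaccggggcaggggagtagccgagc

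Med22 had 2 GC boxes before its start and 1 that ended past it. Med4 had a GC box close to an ETS core, their first bases 46 and 55 bases before the start. Med16 differed from the others shown: its window held no GC box, had a GC content of 39.3% over 300 bases, the lowest of the 26 members with both a promoter peak and a sequence, and its one match was a TATA box on the opposite strand, 231 bases before the start.

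Sp9 peaks lay within 1 kb of the TSS, here called promoter peaks, at 13 of the 105 members in the E13.5 list and at 26 in the E16.5 list. These are shares of 12.4% (7.38 to 20) and 24.8% (17.5 to 33.8). Among all 21900 protein-coding genes the shares were 4.93% and 9.42%. The members' intervals lie above those shares, and the members' count grew 2-fold between the lists where that of all genes grew 1.91-fold. In both lists together 28 members had a promoter peak (26.7%, against 10.9% of all genes). The other 77 had none in either list.

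Peaks farther out, counted at genes without a promoter peak, stood at shares whose intervals include those of all genes. Such peaks 1 to 50 kb from the TSS were found at 6 members at E13.5 (5.71%, 2.64 to 11.9, with 5.89% for all genes). At E16.5 they were found at 3 members (2.86%, 0.976 to 8.07, with 5.64%). Genes with both a promoter peak and a peak at that distance are left out of these counts. The shares are nevertheless of all 105 members and all 21900 genes, not only of those without a promoter peak. A group with more promoter peaks thus has fewer genes left to count. Counting every peak within 50 kb, 19 members (18.1%, with 10.8% of all genes) at E13.5 and 29 (27.6%, with 15.1%) at E16.5 had one. At any distance, 36 members had an assigned peak in at least 1 list (34.3%, with 28% of all genes), and 69 had none.

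**Figure D1:**
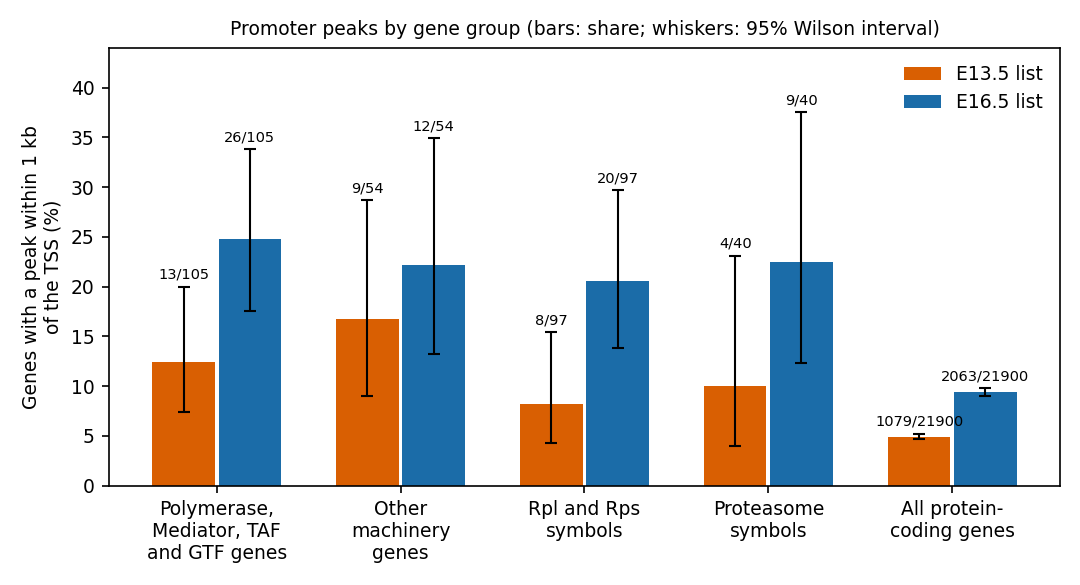
Share of genes (in percent, vertical axis) with a promoter peak, that is one within 1 kb, at E13.5 (orange) and E16.5 (blue) in 5 gene groups; whiskers are 95% Wilson intervals and the counts stand above them. The polymerase, Mediator, TAF and GTF genes stand at 12.4% and 24.8%, and all protein-coding genes at 4.93% and 9.42%.

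The promoter peaks of members sat close to the TSS. At E13.5 they ranged from 239 bp upstream to 419 bp downstream, with a median absolute distance of 121 bp. At E16.5 they ranged from 278 bp upstream to 506 bp downstream, with a median of 89.5 bp. For all protein-coding genes with a promoter peak the medians were 125 and 109 bp. Peaks within 200 bp of the TSS made up 10 of 13 at E13.5 (76.9%, with 70.3% over all genes) and 22 of 26 at E16.5 (84.6%, with 72.6%). In each list 69.2% of the members' promoter peaks lay upstream of the TSS, with 68.5% and 64.2% over all genes. The members' upstream shares have wide intervals (42.4 to 87.3 and 50 to 83.5).

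Of the 13 members with a promoter peak at E13.5, 11 had one at E16.5 too (84.6%, 57.8 to 95.7), beside 69.0% (744 of 1079) over all genes. These 11 are 10.5% of the members, beside 3.40% of all genes. All 11 pairs of peaks lay within 200 bp of each other by TSS distance, the closest 7 bp apart (Taf9) and the farthest 148 bp apart (Polr2a), with a median of 63 bp. Over all genes with a promoter peak in both lists 92.2% were that close, with a median of 61.5 bp. A promoter peak in the E13.5 list only was found at 2 members (1.90%, with 1.53% of all genes), and one in the E16.5 list only at 15 members (14.3%, with 6.02%).

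**Figure D2:**
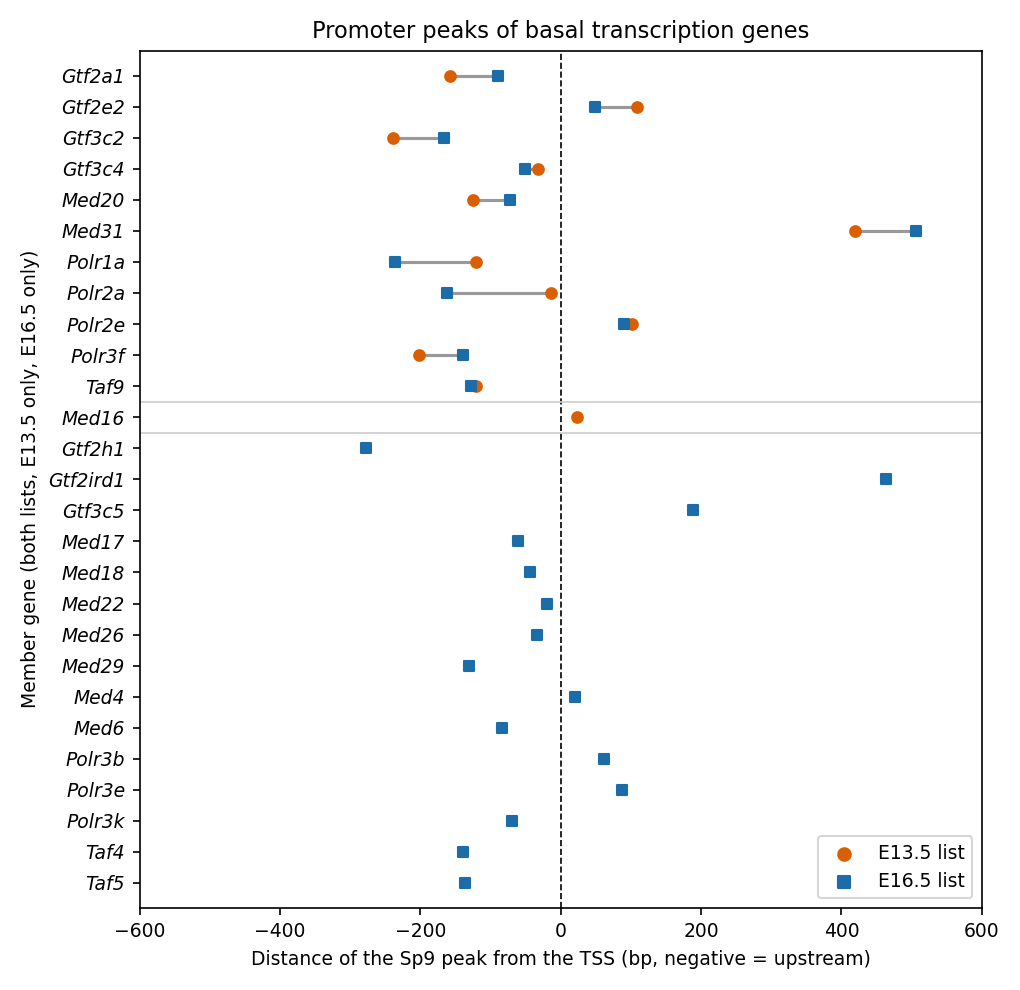
Signed distance (bp, horizontal axis) from the TSS of every promoter peak of 27 members, at E13.5 (orange circles) and E16.5 (blue squares), with a grey line joining the peaks of a gene found in both lists. The 11 genes at the top have both, Med16 has an E13.5 peak only, and the lower 15 an E16.5 peak only; Med31 and Gtf2ird1 lie farthest downstream.

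Among the polymerases, a gene for one of the large catalytic subunits of each enzyme had a promoter peak. Polr1a, the largest subunit of polymerase I, had its peak 121 bp upstream at E13.5 and 236 bp upstream at E16.5. Polr2a had peaks 14 bp and 162 bp upstream at E13.5 and E16.5. Polr3b, the second-largest subunit of polymerase III, had a peak 61 bp downstream at E16.5 and none at its promoter at E13.5. The largest polymerase III subunit gene, Polr3a, and the second-largest subunit genes of polymerases I and II, Polr1b and Polr2b, had no peak in either list. Polr2e, a subunit common to all 3 polymerases, had peaks 101 and 90 bp downstream at E13.5 and E16.5.

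At E16.5, 4 of the 10 genes particular to polymerase III by name had a promoter peak (interval 16.8 to 68.7%). Of the 8 genes of polymerase II, 1 had one (interval 2.24 to 47.1%). The all-gene share of 9.42% lies below the first interval and inside the second, and these intervals overlap. At E13.5 the counts were 2 of 10 and 1 of 8, beside 4.93% of all genes. No difference between the polymerases was tested. Polr3f, whose product takes part in initiation, had peaks 202 bp upstream at E13.5 and 139 bp upstream at E16.5. Polr3e and Polr3k had promoter peaks at E16.5 only, 88 bp downstream and 69 bp upstream, and Polr3k had farther peaks at both stages, given below. Of the polymerase II set only Polr2a had a peak at any distance. The polymerase I and III subunits Polr1c and Polr1d, and Twistnb, Znrd1 and Cd3eap, polymerase I subunits whose table symbols fall outside the rule, had none.

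Mediator had promoter peaks at 3 of its 30 genes at E13.5 (10%, 3.46 to 25.6) and at 9 in the later list (30%, 16.7 to 47.9). Over all genes the shares were 4.93% and 9.42%. The head module contacts polymerase II and is taken here to include Med27, Med28, Med29 and Med30, an assignment on which the module counts depend. It held most of the Mediator promoter peaks at E16.5, with 6 of 12 genes (50%, 25.4 to 74.6). At E13.5 it had 1 (8.33%, 1.49 to 35.4). Med20 was the head gene found at both stages, with peaks 125 and 72 bp upstream at E13.5 and E16.5. Its partner Med18 had a peak 44 bp upstream at E16.5. Med17, the head's scaffold subunit, had one 61 bp upstream, Med6 one 83 bp upstream, Med22 one 20 bp upstream and Med29 one 131 bp upstream, all in the E16.5 list only.

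In the middle module Med31 had peaks 419 and 506 bp downstream at E13.5 and E16.5. Med4 had a peak 21 bp downstream and Med26, which links Mediator to elongation factors, one 34 bp upstream, both at E16.5 only. Of the 5 genes assigned here to the tail, Med16 alone had a promoter peak, 23 bp downstream at E13.5, and the E16.5 list had no peak for it. None of the 4 kinase module genes that the symbol rule takes in, Med12, Med12l, Med13 and Med13l, had a promoter peak at either stage. With 4 genes, a count of 0 allows a high share, up to 49.0% by the Wilson interval. The module's kinase gene Cdk8 and its paralog Cdk19 lie outside the rule and did have promoter peaks, given below.

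The TAFs had few promoter peaks: 1 of 24 in the E13.5 list (4.17%) and 3 in the E16.5 list (12.5%), close to the shares over all genes. Taf9, a histone-fold subunit of both TFIID and the SAGA coactivator, had its peak 121 bp upstream at E13.5 and 128 bp upstream at E16.5. Taf4 and Taf5, core subunits of TFIID, had peaks 139 and 137 bp upstream at E16.5 only. Taf4 is listed under its older name Taf4a, and its window held 6 GC boxes, the most among members with a promoter peak. None of the 4 TAFs of SL1, the factor that recruits polymerase I, had a peak at any distance.

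Of the general factors of polymerase II, Gtf2a1, the large TFIIA subunit gene, had promoter peaks 158 and 89 bp upstream at E13.5 and E16.5. Gtf2e2, the small subunit of TFIIE, had them 109 and 49 bp downstream. Gtf2h1, a core subunit of the DNA repair and transcription factor TFIIH, had a peak 278 bp upstream at E16.5 only. Outside these factors, Gtf2ird1 of the TFII-I family had a peak 463 bp downstream at E16.5 only. Gtf2b, Gtf2f1 and Gtf2f2 had none.

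TFIIIC, which recognises the internal promoters of transfer RNA genes, had promoter peaks at 2 of 6 genes in the E13.5 list (interval 9.68 to 70%). In the E16.5 list it had them at 3 (interval 18.8 to 81.2%). The all-gene shares were 4.93% and 9.42%, below these wide intervals. Gtf3c1, Gtf3c3 and Gtf3c6 had no peak at any distance in either list. Gtf3c2 had peaks 239 and 167 bp upstream, and Gtf3c4 33 and 51 bp upstream, at E13.5 and E16.5. Gtf3c5 had one 189 bp downstream at E16.5 only. Counts per complex are small, and no complex was tested against another.

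**Figure D3:**
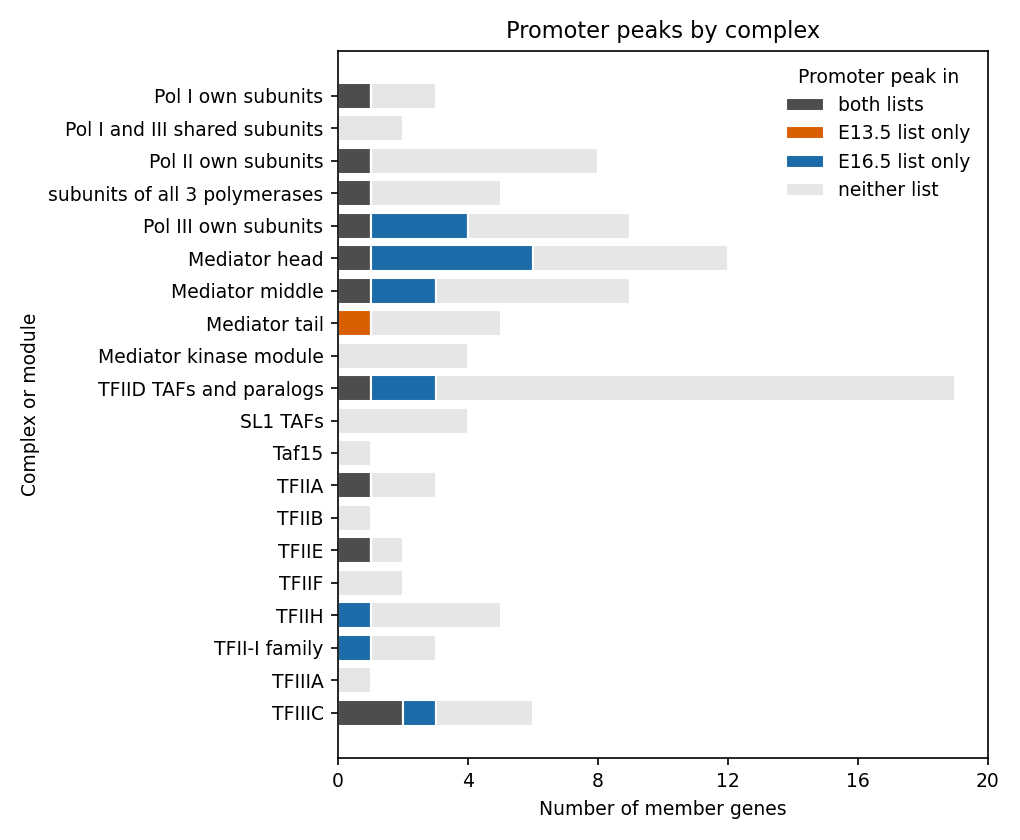
Number of member genes (horizontal axis) in each complex or module with a promoter peak in both lists (dark grey), the E13.5 list only (orange), the E16.5 list only (blue) or neither (light grey), for 104 of the 105 members. The Mediator head, as assigned here, shows 6 of 12 genes with a peak, 5 of them at E16.5 only. The kinase module genes drawn here, which leave out Cdk8 and Cdk19, and the SL1 TAFs show none.

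Of the 15 members with a promoter peak at E16.5 only, 12 (80%, 54.8 to 93.0) had no E13.5 peak at any distance, with 78.2% (1032 of 1319) over all genes. The exceptions were Polr3b, Polr3k and Gtf2ird1, which had farther peaks at E13.5. Med16, with a promoter peak at E13.5 only, had no E16.5 peak at all, as did 75.5% (253 of 335) of all genes with a promoter peak at E13.5 only. Over all genes, 79.7% of those with a promoter peak in 1 list only had it at E16.5, and among members 88.2% (15 of 17, 65.7 to 96.7).

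Several of the promoters are shared with a second gene, so that a peak there belongs to both. At E13.5, 6 of the 13 promoter peaks of members (46.2%, 23.2 to 70.9) and at E16.5, 9 of 26 (34.6%, 19.4 to 53.8) also lay within 1 kb of another gene's TSS. Over all genes with a promoter peak the shares were 23.1% and 23.4%. The Polr1a peaks lay 170 and 55 bp upstream of Ptcd3, a mitochondrial ribosome gene, at E13.5 and E16.5. Those of Gtf3c4 lay 140 and 122 bp upstream of the helicase gene Ddx31. The Taf9 peaks lay 163 and 156 bp upstream of Rad17, a DNA damage checkpoint gene. Polr3f shared its peaks with Dzank1, Gtf2e2 with 1700104B16Rik, and Med20 with Bysl, a ribosome biogenesis gene. At E16.5 only, the Med22 peak lay 175 bp upstream of the ribosomal protein gene Rpl7a and the Gtf2h1 peak 202 bp downstream of the Hps5 TSS. The Med29 peak lay 112 bp upstream of Paf1, a subunit of the elongation complex of the same name. Which gene of a pair a peak acts on, if any, was not tested.

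Outside promoters, members had 25 gene and peak pairs at E13.5 and 22 at E16.5, at 13 and 10 genes. In both lists 15 of these matched a peak of the other list within 200 bp, a share of 60% at E13.5 and 68.2% at E16.5, with 57.2% and 66.3% over all genes' pairs outside promoters. Gtf2a1, besides its promoter peak, had one lying downstream by 37875 bp at E13.5 and by 37860 bp at E16.5, and one 53290 and 53295 bp upstream. A further E13.5 peak, 75313 bp downstream of Gtf2a1, had no match at E16.5. Gtf3c4 had farther peaks 42548 and 59968 bp downstream at E13.5, matched at 42414 and 59965 bp. These 2 genes had both a promoter peak and matched distal peaks at both stages.

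Other members had distal peaks only. Gtf2h5, the smallest TFIIH subunit, had a peak 26761 bp downstream at E13.5 and one 26968 bp downstream at E16.5, 207 bp apart and so just beyond the limit for a match. A peak 34873 and 34927 bp upstream of Gtf2i was also assigned to the adjacent family member Gtf2ird1, at 107078 and 107024 bp downstream, and is 1 peak in each list. Med10 had a peak 38573 bp upstream at E13.5 matched at 38556 bp, and one 25584 bp upstream at E16.5 only. The matched Med10 peak lay nearer to Ube2ql1, at 31412 and 31429 bp upstream of that gene. Beyond 100 kb the E13.5 list gave Med10 4 peaks and the E16.5 list 3.

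Peaks in the E13.5 list only lay 8739 bp upstream of Gtf3a, the 5S ribosomal RNA gene factor, and 38141 bp downstream of Taf3, the TFIID subunit that reads trimethylated histone H3 lysine 4. Polr3b had 2 such peaks, 35592 and 88468 bp downstream, and the farther one lay nearer to Rfx4, a transcription factor gene of the neural tube. Polr3k had distal peaks 53263 and 64889 bp downstream at E13.5, both matched at E16.5, where the list held 5 between 53320 and 66616 bp. Gtf2a1l, the germ cell paralog of Gtf2a1, had a matched peak 95660 and 95637 bp downstream that lay nearer to Lhcgr, at 27656 and 27679 bp. Med13l had its nearest peak 58356 bp downstream at E13.5 and 106125 bp downstream at E16.5. Med27 had a single matched peak, 235865 and 235841 bp downstream, that lay nearer to Rapgef1. Of all these pairs outside promoters, 8 of 25 in the E13.5 list and 9 of 22 in the other lay nearer to the TSS of another listed gene (32.0% and 40.9%, with 45.3% and 45.6% over all genes' pairs).

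**Figure D4:**
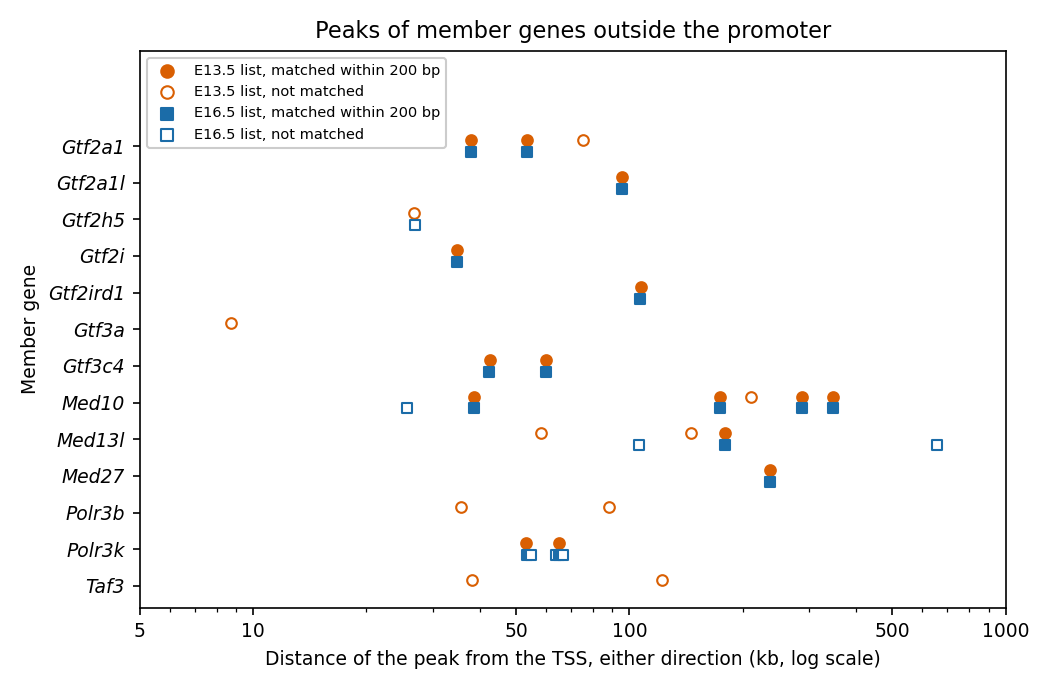
Absolute distance from the TSS (kb, log scale) of every peak assigned to a member and farther than 1 kb, at E13.5 (orange circles, upper of each pair) and E16.5 (blue squares); filled symbols have a counterpart within 200 bp in the other list. Filled pairs stand at Gtf2a1, Gtf3c4, Med10 and Med27 among others, and the Gtf3a, Polr3b and Taf3 peaks are in the E13.5 list only.

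Motif content was compared over the 91 members with a RefSeq promoter of 300 bases (250 before the start and 50 after), the first listed start being used. A GC box was present in 16 of 26 members with a promoter peak in either list (61.5%, 42.5 to 77.6) and in 41 of 65 without one (63.1%, 50.9 to 73.8). Over all 17492 protein-coding promoters of the table it was present in 46.3%, in 78.9% of those with a promoter peak and in 42.2% of those without. The shares of members with and without a peak lay within each other's intervals. Of the 10 members with a promoter peak in both lists and a sequence, 5 had a GC box. Gtf2a1, Gtf3c2, Med31, Polr1a and Polr3f had none, which says only that these letters are not in this window. Polr1a had 2 CACCC boxes, and Gtf3c2 and Med31 had 1 each.

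The median GC content was 59.8% for members with a promoter peak and 59.0% for members without, against 65.0% for all genes with a promoter peak and 55.0% for all genes without. The median CpG count was 23 and 22 in the 2 member groups and 26 and 11 in the 2 groups of all genes. For the other motifs, each pair of shares is for genes with a promoter peak and then for genes without one. A CACCC box was present in 26.9% and 27.7% of members, beside 37.9% and 32.2% of all genes. An ETS core was present in 26.9% and 36.9% of members, beside 19.7% and 10.9% of all genes. A YY1 core was found in 4 of 26 members with a promoter peak (Gtf2h1, Med4, Taf4 and Taf5; 15.4%, 6.15 to 33.5) and 3 of 65 without (4.62%), beside 7.25% and 2.68% of all genes. When only the 250 bases before the start were read, these shares were 3.85% and 1.54% of members, beside 2.98% and 0.984% of all genes. A CCAAT box was present in 34.6% and 32.3% of members, beside 38.1% and 39.1% of all genes. A TATA box was present in 3 of 26 members with a promoter peak (11.5%) and in 15.4% of those without, beside 4.88% and 14.4% of all genes. The homeodomain core was present in 3.85% and 3.08% of members, beside 1.39% and 5.09% of all genes. The NRF1 palindrome was in 0 of 91 members, beside 2.83% and 1.13% of all genes.

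A list of 54 further genes of the transcription machinery, outside the symbol rule, had 9 with a promoter peak at E13.5 (16.7%, 9.02 to 28.7). At E16.5 it had 12 (22.2%, 13.2 to 34.9). Over all genes the shares were 4.93% and 9.42%. The Paf1 peak counted here at E16.5 is the Med29 peak. In both lists, 6 of the 54 genes had a promoter peak (11.1%, 5.19 to 22.2, with 3.40% of all genes). Among these were the pause release kinase Cdk9, 240 and 316 bp upstream, and Ccnt2, a cyclin partner of that kinase, 141 and 57 bp upstream. Larp7 and Mepce, which hold that kinase in its inactive 7SK complex, had peaks 110 and 128 bp and 25 and 33 bp downstream. Hexim1, the inhibitor in the same complex, had one 862 bp upstream at E16.5 only. Nelfe and Supt4a had promoter peaks 127 and 229 bp upstream, also at E16.5 only. No peak at any distance was listed for Ccnt1, Aff4, Ell, Ell2, Nelfa, Nelfb, Supt5 and Supt6. Cdk8, the kinase of the Mediator kinase module, had peaks 162 and 80 bp upstream, and its paralog Cdk19 had one 70 bp upstream at E13.5 only. Crcp, a polymerase III subunit, had peaks 55 and 29 bp downstream. Tbp, the TATA-binding protein gene, and the TFIIH genes Ercc2, Cdk7 and Mnat1 had no peak in either list. Of the 54 genes, 39 had no promoter peak in either list (72.2%, with 89.1% of all genes).

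Other gene groups of general cell function had shares near the members' 24.8% at E16.5 and below their 12.4% at E13.5. Of 97 genes with a symbol beginning Rpl or Rps and a digit, 8 had a promoter peak at E13.5 (8.25%, 4.24 to 15.4) and 20 at E16.5 (20.6%, 13.8 to 29.7). Without the ribosomal S6 kinase genes and Rps19bp1, which that pattern also takes in, 6 of 86 (6.98%, 3.24 to 14.4) and 18 of 86 (20.9%, 13.7 to 30.7) had one. Of 40 genes with a proteasome symbol, 4 (10%, 3.96 to 23.1) and 9 (22.5%, 12.3 to 37.5) had one. Over all genes the shares were 4.93% and 9.42%. The E16.5 peak shared by Med22 and Rpl7a counts in both of their groups. At E13.5 the intervals of these groups include the 4.93% of all genes, which lies below the members' interval (7.38 to 20). At E16.5 they lie above the 9.42% of all genes. The intervals of these groups and of the polymerase, Mediator, TAF and GTF genes overlap, and no difference between the groups was tested.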

How the data were processed

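Per the labels' protocols, dissected tissue was cross-linked and sheared, protein and DNA complexes were captured with antibody and beads, and libraries were built with a low-input kit. The submitters' processing notes list CASAVA 1.8.2, bcl2fastq 1.8.4, BWA 0.6.2 and MACS2 2.1.0 without roles, and mm9. The peak threshold and whether samples were pooled are not given in the sources used here. A peak, per the file headers, was given to each gene whose domain (5000 bp before the TSS to 1000 bp after it, extended up to 1000000 bp, curated domains included) reached it. A peak can thus be listed for several genes. The deposited values are gene names with numbered peaks and distances.

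Lettered entries of 1 peak number were counted once, as were the repeated rows of Taf9. Names were matched to RefSeq symbols and unambiguous synonyms (GRCm38.p6, used for names and gene type): 4698 of 4826 in the E13.5 list and 5330 of 5463 in the other. Genes that the authors' assignment did not include, whose number is unknown, count as having no peak. Promoter sequences are from RefSeq, GRCm38.p6, for 91 of the 105 members and 17492 of 21900 protein-coding genes. Printed windows stop at the gene start. The members and lists were chosen with earlier results of these data known. Named are members with a peak within 50 kb, except 1 that is not reported here by name, and, of those with farther peaks only, the ones under 100 kb. Med27, members named for having no peak or for their module, and the further machinery genes named were chosen after their values were seen. No tests were run, as each stage has 1 ChIP library. Alternatives changed the windows, the name matching, the members and the assignment of peaks. The counting was checked on made-up lists. The software was scipy 1.17.1 and numpy 2.4.6 under Python 3.11.15, with plots from matplotlib 3.10.9.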

Additional observations from a re-analysis of the deposited data

How the results depend on the processing

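Of 40 alternatives, 39 left their count within 1.5 times the reported one, or their share within its interval. Members with a promoter peak numbered 11 to 13 at E13.5 and 22 to 26 at E16.5 under all windows, name matching and assignment rules tried, the lowest with each peak given only to its nearest TSS. The exception was the YY1 core, present in 15.4% of members with a promoter peak over 300 bases and in 3.85% when only the 250 bases before the start were read; over all promoters the shares were 3.19% and 1.21%. With promoters within 500 bp, Med31 moved to the E13.5 list only, which then had 3 members in place of 2. These limits judge a count or share alone, not its contrast with all genes. Within 50 kb the members' shares were 18.1% and 27.6% at E13.5 and E16.5, with 10.8% and 15.1% of all genes. At any distance they were 22.9% and 30.5%, with 20.7% and 23.6% of all genes. The reading of any listed start for the GC box was added after seeing the data and gave 61.5% again. No paired analysis was possible because each stage has 1 ChIP library, and no library could be left out. Depth and peak strength are unknown, so a promoter peak in 1 list only cannot be told apart from a peak that fell below the threshold in the other.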

Other observations

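None of the 5 X-linked members (Med12, Med14, Taf1, Taf7l and Taf9b) had a peak in either list, a count that with 5 genes allows a promoter share of up to 43.4% by the Wilson interval. Of the 966 X-linked genes in all, the E13.5 list held 2 with one near the TSS (0.207%, 0.0568 to 0.752) and the E16.5 list 7 (0.725%, 0.351 to 1.49), where the shares over all chromosomes were 4.93% and 9.42%. What sets the low share on the X was not tested.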
